A study of Homo sapiens with 14 samples.

Results

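The genes described here are 6 CXC chemokines, CXCL1, CXCL2, CXCL3, CXCL5, IL8 (now CXCL8) and CXCL16, and the receptors CXCR4 and CXCR7 (now ACKR3). They were chosen by gene symbol, and all 8 were found among the 23106 symbols counted in each library. Polyadenylated RNA was sequenced from PC3, a human prostate cancer cell line, and from HCT116, a human colorectal cancer cell line. Each line was kept either in normoxia (21% O2) or in hypoxia (0.5% O2) for 16 h, giving 4 libraries of each condition for PC3 and 3 for HCT116. Neither line carried a knock-out or received a drug in these libraries. Each line is a single cultured line, and the study grew the lines in different media. A difference between them is a difference between these lines as cultured. Line, tissue of origin and medium cannot be told apart. Total counts were 98021966 to 123935458 in normoxic PC3, 71228454 to 96159803 in hypoxic PC3 and 133067391 to 150630928 in HCT116. Both PC3 libraries of replicate 1 stood apart from the others, deviating from their group means in common (r = 0.831 across genes), so that results in PC3 are also given without them. Levels are given as CPM, counts scaled to library size and composition.

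Chemokines are small secreted proteins that direct the movement of cells, and the CXC class is named for a pair of cysteines separated by a single residue. CXCL1, CXCL2, CXCL3, CXCL5 and IL8 carry a glutamate-leucine-arginine (ELR) motif, attract neutrophils through CXCR2, and in the case of IL8 also through CXCR1, and promote vessel growth. Their genes are well-known targets of the inflammatory transcription factor NF-κB. CXCR4 is the signalling receptor for CXCL12, guides migrating leukocytes and stem cells, and is used by tumour cells in metastasis. CXCR7 is an atypical receptor that takes up CXCL12 and CXCL11 and recruits β-arrestin. CXCL16 is made as a membrane-anchored protein, is shed by ADAM10, and binds CXCR6.

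Markers of the labelled cell types were found only in part. All 5 epithelial markers examined were above 1 CPM in every group, with summed levels of 3555 to 5147 CPM. In HCT116, CDX2, an intestinal transcription factor, was the only 1 of 5 intestinal markers with a mean of at least 1 CPM. In PC3, KLK3, which encodes prostate-specific antigen, had no count in any library. The 6 leukocyte markers, examined because leukocytes express CXCR4, summed to 1.13 to 2.00 CPM in normoxic and 1.06 to 2.77 CPM in hypoxic PC3. In HCT116 they summed to 0.105 to 0.177 CPM in normoxia and 0.203 to 0.468 CPM in hypoxia. Of them MS4A1 was at 0 in every library. PTPRC, the pan-leukocyte antigen CD45, and CD3E were at 0 in every HCT116 library. LYZ, the lysozyme gene, rose in hypoxic HCT116 from 0.0569 to 0.220 CPM (log2 fold change 1.95, SE 0.66, edgeR quasi-likelihood adjusted p = 0.0485). It had at most 57 counts in a library and was the only 1 of the 6 that passed the filter on low counts there. CD14 went the other way in HCT116, from 0.0306 to 0.00962 CPM, and CSF1R went from 0.0466 to 0.0649 CPM. CXCR4 rose too in hypoxic HCT116, and the part of leukocyte RNA in that rise was not tested.

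The 5 ELR chemokine genes belong to the CXC cluster of chromosome 4 (GRCh37). IL8 lies from 74606236 to 74609433 and CXCL1 from 74735110 to 74737025, both on the plus strand. CXCL5 (74861359 to 74864394), CXCL3 (74902306 to 74904524) and CXCL2 (74962757 to 74964913) are on the minus strand. Each of the 5 canonical transcripts has 4 exons. CXCR4 (136871919 to 136876747, minus strand) and CXCR7 (237476430 to 237490997, plus strand) lie far apart on chromosome 2 and have 2 exons each. CXCL16 has 6 exons and lies on chromosome 17 (4636828 to 4643223, minus strand).

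The promoters of the ELR chemokines are shown because these genes did not all move alike in hypoxic PC3. The sequences are the 250 bases before the start of the canonical transcript, read from GRCh37 and written 5′ to 3′ on the strand of the gene. They are chr4:74734860-74735109 (plus) for CXCL1, chr4:74964913-74965162 (minus) for CXCL2, chr4:74904407-74904656 (minus) for CXCL3, chr4:74864395-74864644 (minus) for CXCL5 and chr4:74606036-74606285 (plus) for IL8. Capitals mark GGAATTTCC, a κB-type word, and, in CXCL5 alone, a reverse-strand match to GCGTG.
CXCL1: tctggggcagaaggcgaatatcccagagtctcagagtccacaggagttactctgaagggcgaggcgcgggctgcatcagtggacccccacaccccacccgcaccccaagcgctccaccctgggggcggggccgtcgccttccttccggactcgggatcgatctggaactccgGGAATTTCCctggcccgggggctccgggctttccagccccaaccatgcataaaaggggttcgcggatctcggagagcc
CXCL2: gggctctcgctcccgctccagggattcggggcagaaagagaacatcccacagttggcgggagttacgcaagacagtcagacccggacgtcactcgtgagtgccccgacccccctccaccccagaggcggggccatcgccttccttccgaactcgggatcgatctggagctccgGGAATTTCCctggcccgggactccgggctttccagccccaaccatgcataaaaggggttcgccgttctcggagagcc
CXCL3: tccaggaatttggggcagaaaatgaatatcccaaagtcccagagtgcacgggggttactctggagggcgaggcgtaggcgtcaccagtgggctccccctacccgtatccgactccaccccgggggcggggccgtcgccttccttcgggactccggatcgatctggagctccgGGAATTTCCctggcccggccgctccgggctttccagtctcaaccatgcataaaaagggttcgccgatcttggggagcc
CXCL5: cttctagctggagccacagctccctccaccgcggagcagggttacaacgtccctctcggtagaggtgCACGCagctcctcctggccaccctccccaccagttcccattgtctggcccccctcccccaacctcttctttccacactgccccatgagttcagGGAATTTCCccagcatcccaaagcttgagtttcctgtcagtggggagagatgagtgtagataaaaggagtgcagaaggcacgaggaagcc
IL8: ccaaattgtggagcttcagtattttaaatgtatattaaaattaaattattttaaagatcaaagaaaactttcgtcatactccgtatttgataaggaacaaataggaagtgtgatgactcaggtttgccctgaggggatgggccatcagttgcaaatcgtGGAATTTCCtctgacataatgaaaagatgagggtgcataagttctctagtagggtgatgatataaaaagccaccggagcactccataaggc

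GGAATTTCC, searched on both strands, was found once in each of the 5 windows, in the orientation of the gene. It began 78 bases before the start in CXCL1 and CXCL3, 77 in CXCL2, 90 in CXCL5 and 91 in IL8. Over all protein-coding genes, 70 of 19856 windows of this length (0.353%) held it. CXCL6, a sixth ELR chemokine of the cluster, held it 89 bases before its start. The windows of CXCL1, CXCL2 and CXCL3 were alike, at 71.3% to 81.4% identity in pairwise alignment, whereas the other 25 pairs among the 8 genes lay between 42.1% and 52.5%. The core of the hypoxia response element, ACGTG or GCGTG on either strand, was found in the windows of CXCR4 (39 bases before the start), CXCL5 and CXCL16 and not in that of CXCR7. It was also found in 51.5% of all windows. A match says only that the letters are there.

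In normoxia the lines differed in most of these genes. In RNA from whole cultures, fewer expressing cells and less RNA per cell cannot be told apart. IL8 was the highest of the 8 in PC3, at 807 to 2534 CPM, and CXCL16 was the highest in HCT116, at 37.1 to 41.3 CPM. Levels of different genes were compared per kilobase of the canonical transcript. On this scale the order in normoxic PC3 was IL8 (866 ± 465 CPM per kb, SD, n = 4), CXCL1 (76.4 ± 2.69), CXCL16 (35.5 ± 6.88), CXCL5 (20.1 ± 7.61), CXCL3 (4.23 ± 1.43), CXCL2 (3.93 ± 2.03), CXCR7 (0.479 ± 0.112) and CXCR4 (0.204 ± 0.0935). Of neighbours in this order, CXCL16 and CXCL5 overlapped in range, as did CXCL3 and CXCL2. In normoxic HCT116, CXCL16 stood at 16.7 ± 0.956 CPM per kb (n = 3). IL8, CXCL3, CXCR4, CXCL2 and CXCL1 followed at mean values of 0.358 down to 0.173 CPM per kb, each overlapping its neighbour. CXCR7 and CXCL5 were at or near 0.

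**Figure D1:**
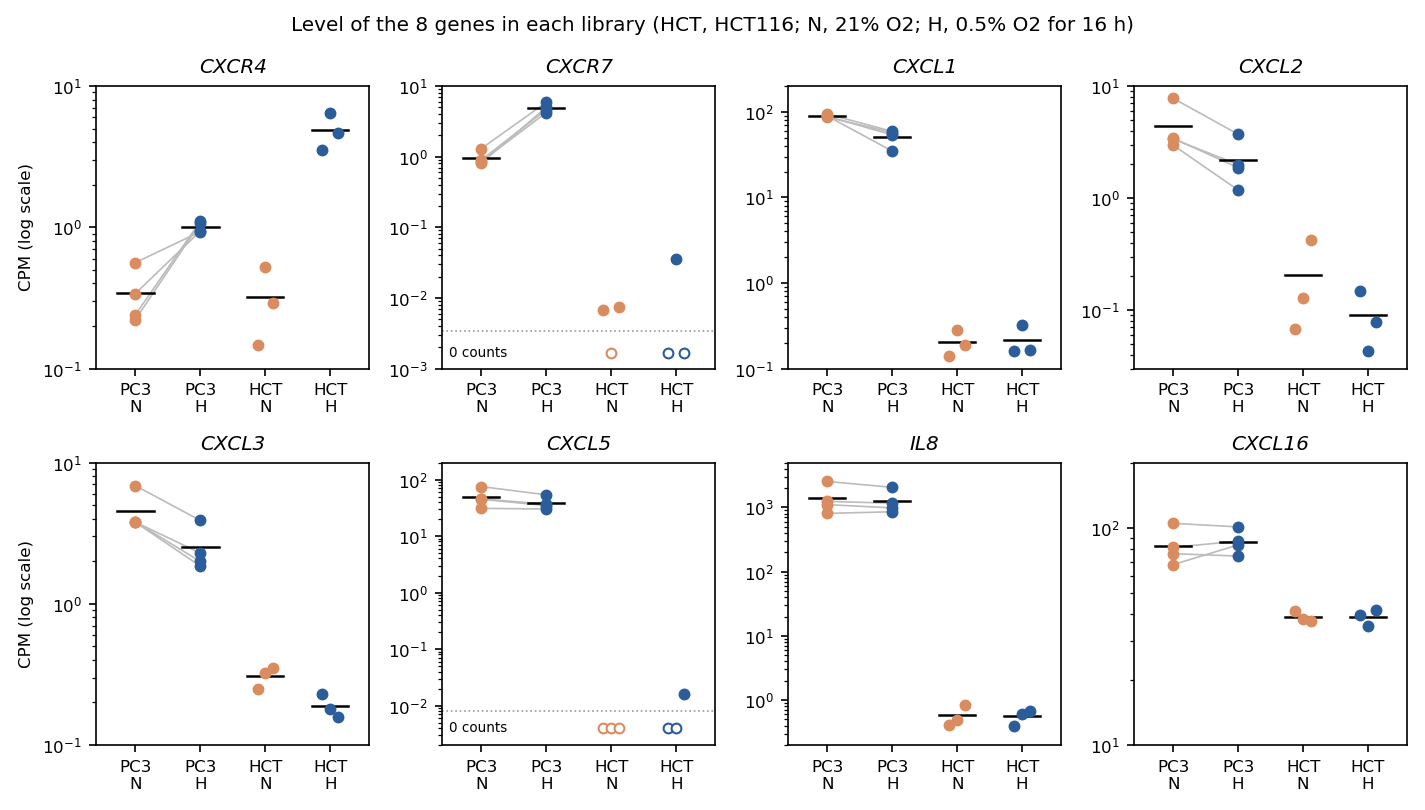
Level of each of the 8 genes in every library, in CPM on a log axis, for PC3 and HCT116 in normoxia (N, orange) and hypoxia (H, blue). Points are libraries, black bars are group means where no library is at 0, grey lines join PC3 libraries of the same replicate number, and open circles below the dotted line had 0 counts. CXCR4 was higher in hypoxia in both lines, CXCR7 and the ELR chemokines were high in PC3 only, and CXCL16 lay close together within each line.

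Between PC3 and HCT116 in normoxia, 7 of the 8 genes were higher in PC3 and none was lower. This is to be read against 81.3% of all 15493 genes tested that differed between the lines, and 42.4% that were higher in PC3. IL8 ranged from 0.415 to 0.851 CPM in HCT116, and its log2 fold change of PC3 over HCT116 was 11.25 (SE 0.59, edgeR quasi-likelihood adjusted p = 8.65e-11). CXCL1 differed by 8.78 (SE 0.28), CXCL2 by 4.43 (SE 0.60) and CXCL3 by 3.88 (SE 0.33) on the log2 scale. CXCL5 had no count in the 3 normoxic HCT116 libraries against 23177 counts over the 4 of PC3, which made it at least 6920-fold higher in PC3 with a floor of 3 counts over the HCT116 group. CXCL16 differed least of the 7, by 1.09 (SE 0.13, adjusted p = 1.80e-06). Without the PC3 libraries of replicate 1 the same number of genes, 7, was called, and IL8 differed by 10.82.

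The receptors differed from each other in this comparison. CXCR7 had 88 to 155 counts per normoxic PC3 library and 1, 0 and 1 counts in HCT116. The pooled ratio was 205, from 2 counts in HCT116, with a 95% counting interval of 56.8 to 1694 that covers counting error only. CXCR4 was at 0.341 ± 0.156 CPM in PC3 (SD, n = 4) and 0.321 ± 0.190 CPM in HCT116 (n = 3). The ranges overlapped, and the log2 difference was 0.09 (95% interval -0.75 to 0.92, adjusted p = 0.845). Its sign turned without replicate 1 of normoxic PC3 (-0.27) and without replicate 1 of normoxic HCT116 (-0.27).

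In hypoxic PC3, both receptors rose and CXCL1 fell, so that 2 of the 8 genes were called higher and 1 lower. Over all 14309 genes tested, 11.3% were called, 6.03% as higher and 5.29% as lower. The replicate numbers were used to pair the PC3 libraries, a pairing that was clearest for replicate 1. A fit with the replicate number as a block called 2 of the 8 genes higher and 4 lower. In that fit 28.5% of all genes were called (14.9% higher, 13.6% lower). The median log2 fold change of the 8 genes was -0.25, beside 0.00 over all genes tested.

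CXCR7, the atypical receptor, had the larger rise. Its level was 1.30, 0.897, 0.853 and 0.812 CPM in the normoxic PC3 libraries 1 to 4. It was 5.88, 4.63, 4.21 and 4.99 CPM in the hypoxic ones. Every hypoxic library lay above every normoxic one, as for 9.62% of all genes tested, and the rise within a pair was 2.18 to 2.62 on the log2 scale. The fitted log2 fold change was 2.35 (SE 0.19, edgeR quasi-likelihood adjusted p = 0.000202), a 5.12-fold rise, and 2.43 without replicate 1. In HCT116 the gene had 0, 5 and 0 counts in hypoxia and did not pass the filter on low counts. Both HCT116 groups were near the floor of 3 counts per library, 0.0201 to 0.0236 CPM, so no change could be given for that line.

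CXCR4 rose in both lines from normoxic levels that overlapped between them. In PC3 it was at 0.562, 0.222, 0.339 and 0.240 CPM in normoxia and at 0.930, 1.07, 0.941 and 1.10 CPM in hypoxia. These are 29 to 67 counts and 74 to 91 counts per library. The groups did not overlap, and replicate 1 had both the highest normoxic and the lowest hypoxic level. The log2 fold change was 1.57 (SE 0.30, edgeR quasi-likelihood adjusted p = 0.0124), a 2.97-fold rise, and 1.97 without replicate 1 (adjusted p = 0.00312).

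In HCT116, CXCR4 was at 0.147, 0.524 and 0.291 CPM in normoxia and at 3.51, 6.44 and 4.67 CPM in hypoxia. The lowest hypoxic library lay above the highest normoxic one, as for 20.3% of all genes tested in this line. The log2 fold change was 3.94 (SE 0.35, edgeR quasi-likelihood adjusted p = 1.90e-05), a 15.4-fold rise with a 95% interval of 3.19 to 4.71 on the log2 scale. It was the only 1 of the 6 genes tested in this line that was called, in a comparison where 25.9% of 14120 genes were called and 14.6% were called higher. CXCR7 and CXCL5 were not tested there because of their low counts.

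The rise of CXCR4 was smaller in PC3 than in HCT116 by 2.36 on the log2 scale (SE 0.52, interaction of line and oxygen, edgeR quasi-likelihood adjusted p = 0.0284). Of all 15493 genes tested, 2.32% had a called interaction, 1.31% in this direction, and CXCR4 was the only 1 of the 8. The call was close to the threshold. Without both PC3 libraries of replicate 1 the difference was -1.96 (adjusted p = 0.0514). The adjusted p was 0.0535, 0.0596 and 0.0534 without hypoxic replicate 2, normoxic replicate 3 and hypoxic replicate 3 of PC3. It was 0.0625, 0.0911, 0.0850 and 0.0600 without normoxic replicate 1, hypoxic replicate 2, normoxic replicate 3 and hypoxic replicate 3 of HCT116. The difference kept its sign with any 1 of the 14 libraries left out. With the replicate block it was -2.39 (edgeR adjusted p = 0.00344), in a fit that called 8.44% of all genes, 4.58% with the smaller or more negative change in PC3. This fit also blocks HCT116 by replicate number, which does not clearly pair those libraries. Among 8 genes widely used as markers of hypoxia-inducible factor activity, all 8 rose in both lines and 4 had a called interaction, also with the smaller rise in PC3, or 7 with the block.

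**Figure D2:**
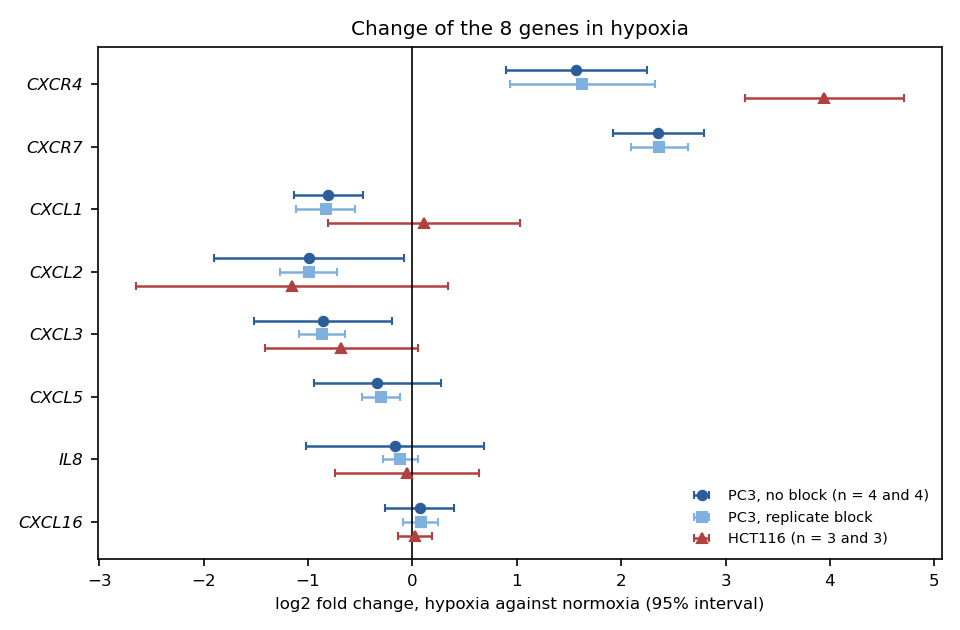
Log2 fold change of each gene in hypoxia against normoxia with its 95% interval, in PC3 without and with the replicate block and in HCT116, and a line at no change. CXCR4 is right of 0 in both lines and CXCR7 in PC3, where the intervals of CXCL1, CXCL2 and CXCL3 lie left of 0 in both fits and that of CXCL5 with the block only; CXCR7 and CXCL5 have no HCT116 value.

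The balance of the receptors differed by line. Per kilobase of transcript, CXCR7 exceeded CXCR4 by 1.92 to 3.34 times in the normoxic PC3 libraries and by 3.57 to 5.23 times in the hypoxic ones, a shift that was not tested. In HCT116 the ratio was at most 0.0376. CXCR4 became the second highest of the 8 genes in hypoxic HCT116, at 2.92 ± 0.884 CPM per kb (n = 3), after CXCL16. CXCL12, the ligand shared by both receptors, had no count in any PC3 library and at most 1 count in an HCT116 library. MIF, another ligand of CXCR4, is listed at 0 in all 14 libraries, which cannot be read as absence of its transcript because most cells express this gene.

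Of the ELR chemokines, CXCL1 fell in hypoxic PC3. It was at 88.5, 94.2, 86.8 and 89.1 CPM in normoxia, the least variable of the group, and at 53.7, 59.0, 57.1 and 34.8 CPM in hypoxia. The groups did not overlap, and hypoxic replicate 4 was the lowest. In PC3 20.9% of all genes had groups that did not overlap, and for 11.3% hypoxia was the lower. The log2 fold change was -0.80 (SE 0.15, edgeR quasi-likelihood adjusted p = 0.00979), a level 0.573 times that in normoxia, and -0.84 without replicate 1 (adjusted p = 0.0256).

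CXCL2 and CXCL3, the closest relatives of CXCL1, were lower in hypoxia in all 4 PC3 pairs. CXCL2 was at 7.76, 3.42, 3.36 and 2.97 CPM in normoxia and at 3.71, 1.86, 1.98 and 1.18 CPM in hypoxia. CXCL3 was at 6.86, 3.79, 3.78 and 3.78 CPM in normoxia and at 3.89, 1.99, 2.28 and 1.85 CPM in hypoxia. Replicate 1 was the highest in both conditions for both genes, and its hypoxic level lay above the normoxic levels of the other replicates, so that the groups overlapped. The log2 fold change of CXCL2 was -0.99 (SE 0.41, edgeR adjusted p = 0.149), and with the replicate block it was -0.99 with an adjusted p of 0.00189. That of CXCL3 was -0.85 (SE 0.29, edgeR adjusted p = 0.0936), and with the block -0.87 with an adjusted p of 0.00146. Without both PC3 libraries of replicate 1, the changes were called without the block as well, at -0.94 (adjusted p = 0.0253) and -0.88 (adjusted p = 0.00696). Leaving out hypoxic replicate 1 alone gave -1.39 (adjusted p = 0.0477) and -1.16 (adjusted p = 0.0232), and leaving out normoxic replicate 1 alone gave -0.55 (adjusted p = 0.305) and -0.57 (adjusted p = 0.173).

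CXCL5 and IL8 changed less. CXCL5 was at 74.9, 44.8, 45.3 and 30.9 CPM in normoxic PC3 and at 53.6, 34.5, 36.7 and 30.0 CPM in hypoxic PC3. The groups overlapped, and the log2 fold change was -0.33 (SE 0.27, edgeR adjusted p = 0.461). It was -0.04 without normoxic replicate 1 and -0.54 without hypoxic replicate 1. With the block it was -0.30 (95% interval -0.48 to -0.12, adjusted p = 0.0276), and without both libraries of replicate 1 the blocked value was -0.24 (adjusted p = 0.115). An unnamed gene overlaps exons of CXCL5 on the other strand, so its counts are uncertain where strand was not used.

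IL8 was at 2534, 1103, 1240 and 807 CPM in normoxic PC3 and at 2054, 984, 1164 and 855 CPM in hypoxic PC3. Replicate 1 was again the highest in both conditions, and the spread between replicates exceeded the difference between conditions. The log2 fold change was -0.17 (95% interval -1.02 to 0.69, edgeR adjusted p = 0.815). With the block the interval narrowed to -0.28 to 0.06 around -0.11 (adjusted p = 0.267). Without replicate 1 the value was -0.07, and without normoxic replicate 1 alone it was 0.28. IL8 was lower in 3 of 4 pairs and took 0.0806% to 0.269% of all counts of a PC3 library.

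CXCL1, CXCL2 and CXCL3 stood below CXCL5 and IL8 in every PC3 pair. In 4 of 4 pairs, CXCL1, CXCL2 and CXCL3 each fell more than CXCL5, and CXCL5 had a lower log2 ratio than IL8, whose ratio was above 0 in replicate 4. The order among CXCL1, CXCL2 and CXCL3 varied between pairs. In replicate 4, where this gap was widest, the first 3 fell by 1.03 to 1.36 on the log2 scale while CXCL5 changed by -0.04 and IL8 by 0.08. In replicate 1, where it was narrowest, they fell by 0.72 to 1.07 against -0.48 and -0.30. The grouping was noticed in these values and was not tested. Of the 75-base windows of CXCL2 and CXCL3, 2.50% and 2.30% occur in a relative, whereas IL8 shared none. How reads from such windows were counted was not examined, so the counts of CXCL2 and CXCL3 are uncertain in part.

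**Figure D3:**
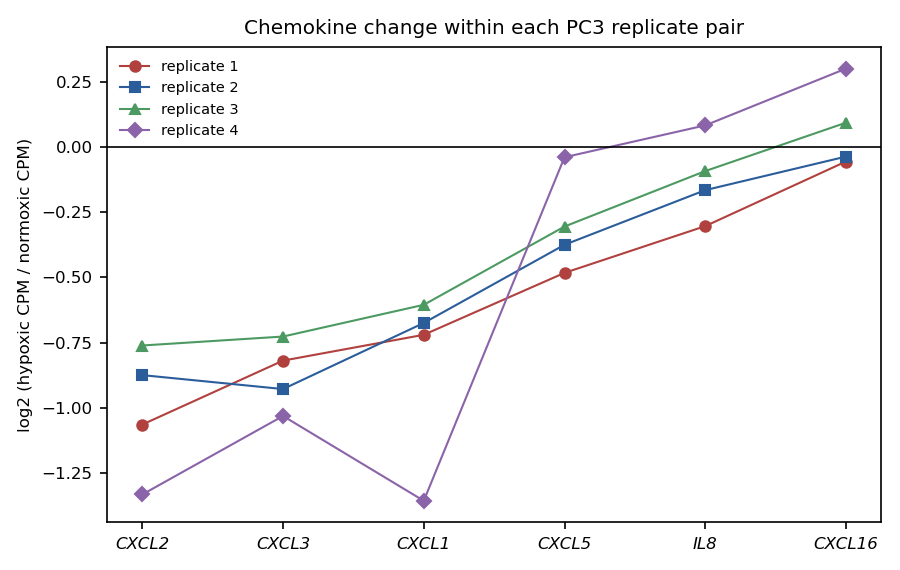
Log2 ratio of hypoxic to normoxic CPM within each PC3 replicate pair for the 6 chemokines. Each line is a replicate; CXCL1, CXCL2 and CXCL3 lie below CXCL5, and CXCL5 below IL8, in all 4 replicates, and CXCL16 lies near or above 0.

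In HCT116 the ELR chemokines were detected at low counts, and none was called in hypoxia. By edgeR 0 of the 6 genes tested were lower there, 0 at an unadjusted p under 0.05 and 0 by DESeq2. Over all genes tested in HCT116, edgeR called 11.3% lower. CXCL3 was at 0.248, 0.326 and 0.351 CPM in normoxia and at 0.231, 0.180 and 0.158 CPM in hypoxia. These ranges did not overlap, as was the case for 42.5% of all genes tested in HCT116. The share of all genes tested that did not overlap and were lower in hypoxia was 22.2%. Its log2 fold change was -0.68 (SE 0.33, edgeR adjusted p = 0.158). CXCL2 was at 10, 18 and 56 counts in normoxia and 21, 6 and 10 counts in hypoxia, with overlapping groups and a log2 fold change of -1.14 (SE 0.68, edgeR adjusted p = 0.240). Without normoxic replicate 3, which held the 56 counts, it was -0.09.

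CXCL1 and IL8 moved less in HCT116 than their spread. CXCL1 was at 0.141 to 0.284 CPM in normoxia and 0.161 to 0.324 CPM in hypoxia, with a log2 fold change of 0.11 (95% interval -0.81 to 1.03). IL8 was at 0.415 to 0.851 CPM and 0.391 to 0.677 CPM, with a log2 fold change of -0.05 (95% interval -0.74 to 0.64). CXCL5 had 0, 0 and 2 counts in hypoxia. The fall of CXCL1 in PC3 was not shown to differ from its change in HCT116, as the interaction was -0.91 (SE 0.40, edgeR adjusted p = 0.270).

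CXCL16 did not pass the test in either line. It was at 105, 76.1, 81.4 and 67.7 CPM in normoxic PC3 and at 101, 74.2, 86.8 and 83.5 CPM in hypoxic PC3. The groups overlapped, and the log2 fold change was 0.07 (95% interval -0.26 to 0.40, edgeR adjusted p = 0.797). In HCT116 it was at 41.3, 37.9 and 37.1 CPM in normoxia and at 39.8, 35.5 and 41.6 CPM in hypoxia, a log2 fold change of 0.02 (95% interval -0.14 to 0.19, edgeR adjusted p = 0.838). Its exons overlap those of MED11 and ZMYND15 on the other strand, so its counts are uncertain where strand was not used. CXCR6, its receptor, was at 0.317 CPM in normoxic PC3 and 0.0352 CPM in normoxic HCT116. ADAM10, its sheddase, was at 95.4 and 109 CPM.

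Across the chromosome 4 cluster, neighbouring genes had very different levels in PC3. The 9 genes spanned 359 kb, and CXCL6, PF4V1 and the platelet chemokines PF4 and PPBP lay between IL8 and CXCL5. CXCL6 was at 48.5 ± 6.68 CPM in normoxic PC3 and 57.2 ± 12.3 CPM in hypoxic PC3 (n = 4). Its log2 fold change was 0.24 (SE 0.15, edgeR adjusted p = 0.337), and with the replicate block the edgeR adjusted p was 0.0538. Exons of CXCL6 overlap those of PPBPP1 on the same strand, so its counts are uncertain. The promoter window of CXCL6 holds the same κB-type word as those of CXCL1, CXCL2, CXCL3, CXCL5 and IL8. PF4, PF4V1 and PPBP had means of at most 0.503 CPM in PC3. Of their 75-base windows, 7.77% to 62.4% occur in transcripts of another annotated gene, so their counts are uncertain. For PPBP this is only an unnamed gene that overlaps exons of PF4 and PPBP on the same strand. In HCT116 no gene of the cluster other than IL8 reached a mean of 0.4 CPM.

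**Figure D4:**
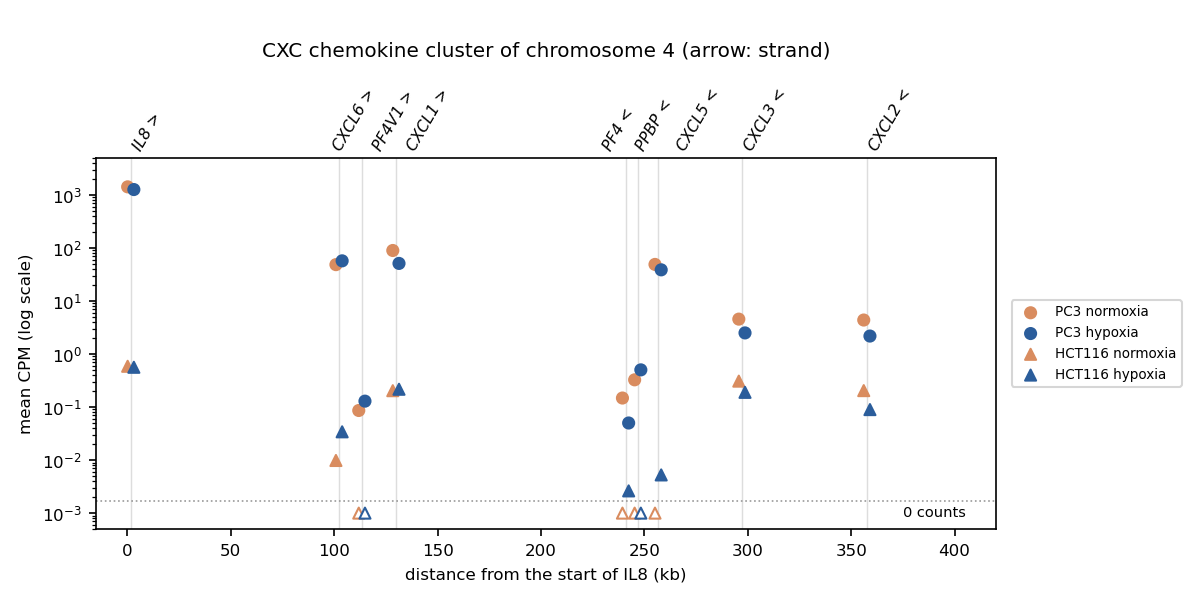
Mean CPM (log axis) of the 9 genes of the chromosome 4 cluster by distance from the start of IL8 in kb, for PC3 (circles) and HCT116 (triangles) in normoxia (orange) and hypoxia (blue); open symbols below the dotted line had 0 counts and arrows give the strand. IL8, CXCL6, CXCL1 and CXCL5 stand above 30 CPM in PC3 with PF4V1, PF4 and PPBP below 1 CPM between them.

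Of the 16 other CXC chemokine and receptor genes, 7 were tested in PC3 and 1 in HCT116. By edgeR 0 were called in either line, 0 had an unadjusted p under 0.05, and 0 were called by DESeq2. Over all genes tested, edgeR called 11.3% in PC3 and 25.9% in HCT116. CXCL10 and CXCL11, interferon-induced ligands of CXCR3, were at 1.32 ± 1.17 and 3.69 ± 2.98 CPM in normoxic PC3 (n = 4) and 1.26 ± 0.915 and 2.98 ± 2.24 CPM in hypoxic PC3. CXCR1 and CXCR2, the receptors for the ELR chemokines, had means of at most 0.0813 CPM in any group. Of the 25 CC, C and CX3C genes, 9 were tested in PC3 and 5 in HCT116. By edgeR 0 were called, beside the same 11.3% and 25.9% of all genes. In PC3, 3 of them (CCL26, CCL28 and CCR10, all higher) had an unadjusted p under 0.05, and DESeq2 called CCL26. With the block CCL26 and CCL28 were called in PC3, beside 28.5% of all genes. In HCT116 0 had an unadjusted p under 0.05 and DESeq2 called 0.

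Of 23 genes of the NF-κB pathway and its targets, 22 were tested in PC3, where 1 was higher and 1 lower, and 18 in HCT116, where 4 were lower. Over all genes, 11.3% were called in PC3, and 25.9% in HCT116 with 11.3% lower. With the block, 4 were higher and 7 lower in PC3, where 28.5% of all genes were called. NFKBIA, the inhibitor of NF-κB and itself a target, rose in PC3 from 92.2 to 142 CPM (log2 fold change 0.63, SE 0.14, edgeR adjusted p = 0.0196). In HCT116 it was at 22.5 and 21.2 CPM, and the interaction was 0.71 (SE 0.17, edgeR adjusted p = 0.0443). IL1B, an inflammatory cytokine, fell in PC3 from 42.5 to 27.9 CPM (-0.60, SE 0.10, edgeR adjusted p = 0.00705). NFKBIZ, an atypical IκB protein, fell in HCT116 from 2.57 to 1.36 CPM (-0.91, SE 0.15, edgeR adjusted p = 0.00129). The others called in HCT116 were CHUK, NFKBIB and TNFAIP2, which fell by 0.21 to 0.39 on the log2 scale.

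Of 18 genes that act with the receptors, 15 were tested in PC3, with 1 higher and 1 lower, where 11.3% of all genes were called. In HCT116 17 were tested, with 3 higher, where 14.6% of all genes were higher. With the block, 4 were higher and 2 lower in PC3, beside 28.5% of all genes called. ARRB1, which encodes β-arrestin 1, rose in PC3 from 44.3 to 66.3 CPM (log2 fold change 0.59, SE 0.07, edgeR adjusted p = 0.00131), with an interaction of 0.50 (SE 0.12, edgeR adjusted p = 0.0371). RGS2, a regulator of G protein signalling, fell in PC3 from 82.0 to 55.5 CPM (-0.56, SE 0.08, edgeR adjusted p = 0.00384). In HCT116 the inhibitory G protein subunit GNAI2, the receptor kinase GRK5 and DPP4, a peptidase that cleaves CXCL12, rose by 0.26, 0.40 and 0.55 on the log2 scale.

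The genes most like each of the 8 were found by Pearson's r of log2 CPM over the 14 libraries after each line's mean was removed, among 12637 genes. For CXCR4 they were PDIA5 (0.98), B3GNT4 (0.97) and DDIT4 (0.97). For CXCR7 they were TSC22D1 (0.92), TMEM242 (0.90) and ARHGAP31 (0.90). ZNF189 (0.95) was closest to CXCL1, PTS (0.90) to CXCL2, HSPBAP1 (0.95) to CXCL3, LINC00667 (0.92) to CXCL5, FER1L6 (0.94) to IL8 and GRINA (0.95) to CXCL16. The libraries share conditions and replicate effects, so these values describe the libraries only.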

How the data were processed

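Polyadenylated RNA was sequenced in 14 libraries of PC3 and HCT116 cells. The authors aligned paired-end reads with HISAT2 (2.05) to the ERCC spike-ins and then to GRCh37, counted reads on RefSeq genes with HTSeq (0.5.4p3), and deposited raw counts per gene and library. The RefSeq release and whether strand was used in counting are not given in the sources used here. Deposited counts of replicates differed by far more than sampling noise (chi-square per gene 12.1 to 257), and each library was taken as a replicate. The labels call them replicates and the study's methods biological replicates.

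Counts were filtered (filterByExpr), TMM-scaled and tested by edgeR's quasi-likelihood test (4.0.16, R 4.3.3) over all genes with Benjamini-Hochberg adjustment at 0.05. The fits were within each line, or over all 14 libraries for the interaction and the comparison of the lines. The SE is the unshrunk log2 fold change over the square root of F. CPM values use a single TMM scaling over the 14 libraries. The tests were also run on simulated data. These had no replicate effect and gave all genes the same spread, less than that of CXCL2 or IL8 in PC3. They do not show how the tests perform on genes that vary so much. Transcripts, exons and promoters are those of GENCODE v44lift37, canonical transcripts, on GRCh37. Promoters were aligned globally with match 1, mismatch -1 and gap -2. The members and lists were chosen with earlier results of these data known. Genes outside the 8 are named where called with a list, at a mean of at least 1 CPM among the other CXC genes, as the 3 most alike, or as ligand, receptor, sheddase or cluster neighbour, the last chosen after values were seen.

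The replicate numbers, taken from the labels, were used to pair the PC3 libraries. Deviations of same-numbered libraries from their group means correlated across genes at 0.831, 0.472, 0.314 and 0.408. Those of unlike-numbered PC3 libraries correlated at -0.577 to 0.346, a range that holds the value of replicate 3. The pairing was thus clearest for replicate 1. Alternatives were DESeq2 (1.42.0), scaling by total count, upper quartile or median of ratios, other filters on low counts, a fit over both lines, the replicate block, and each library left out. Leaving out both PC3 libraries of replicate 1 was chosen after seeing the data. Reads of the ERCC spike-ins, the ChIP-seq data and the knock-out lines are not analysed here.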

Additional observations from a re-analysis of the deposited data

Results flagged for a closer look

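In normoxic PC3, replicate 1 lay far from the others for CXCL2 (7.76 CPM against 2.97 to 3.42) and for CXCL3 (6.86 CPM against 3.78 to 3.79). Of 16 groups of 4 libraries examined for such a value, these 2 had one, where 0.8 would be expected by chance, and the 2 genes share the library. Replicate 1 was also the highest of both PC3 groups for CXCR7, CXCL5, IL8 and CXCL16. The hypoxic rise of CXCR4 differed between PC3 and HCT116 by -2.36 on the log2 scale in the test of the interaction (edgeR adjusted p = 0.0284).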

How the results depend on the processing

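Of the 8 genes, CXCR4, CXCR7 and CXCL1 in PC3 and CXCR4 in HCT116 kept their direction and stayed called under every alternative run and with any library left out. In PC3 the number of the 8 called rose from 3 to 6 with the replicate block and to 5 without both replicate 1 libraries, with or without the block, and was 3 to 5 with single libraries left out. CXCL3 was also called by DESeq2 (adjusted p = 0.0235) and in the fit over both lines (0.0308), so that its adjusted p ranged from 0.00146 to 0.0989 over the alternatives. The number of all genes called in PC3 was 1620, and 2601 by DESeq2, 4074 with the block, 2465 in the fit over both lines and 553 to 2085 with a library left out. In HCT116 it was 3658, and 1733 in the fit over both lines. For the interaction it was 359, and 974 by DESeq2, 1307 with the block, 684 with the block and without replicate 1 of PC3, and 177 to 717 with a library left out. The interaction of CXCR4 was no longer called without both replicate 1 libraries (-1.96, adjusted p = 0.0514), when 0 of the 8 genes were called. With the block and without these libraries it was called (-2.03, edgeR adjusted p = 0.00778), as 1 of the 8. That block also covers HCT116, whose replicate numbers do not clearly pair its libraries. With single libraries left out, 0 to 1 of the 8 were called. With at least 10 counts in every library, CXCR7, CXCL2 and CXCL5 could not be tested between the lines. The 4 genes called were CXCL1, CXCL3, IL8 and CXCL16, which were also called without this filter, and 10002 of all genes were called. The causes were not tested.

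The sign turned only for values that were not called. Total-count scaling, which lowered the median of all genes by 0.10 in PC3 and 0.09 in HCT116, gave CXCL16 -0.033 in PC3 and -0.068 in HCT116. The share of called genes that were higher was 53.3% in PC3, 39.4% with upper-quartile and 24.5% with total-count scaling, and in HCT116 56.3% and, with total-count scaling, 29.0%. CXCR4 between the lines was -0.27 without both replicate 1 libraries of PC3. With single libraries left out, values ranged in PC3 from -0.52 to 0.28 for IL8 and -0.023 to 0.22 for CXCL16. In HCT116 they ranged from -0.30 to 0.41 for CXCL1, -0.26 to 0.31 for IL8 and -0.017 to 0.088 for CXCL16. Interactions ranged from -0.89 to 0.73 for CXCL2, -0.46 to 0.10 for CXCL3, -0.47 to 0.33 for IL8 and -0.027 to 0.19 for CXCL16, and CXCR4 between the lines from -0.27 to 0.64. Same-numbered HCT116 libraries correlated at 0.092, 0.388 and -0.059, and unlike-numbered ones at -0.282 to 0.212. The numbers thus do not clearly pair the HCT116 libraries. A replicate block there called 3754 genes and changed no call among the 8. The counts of CXCR7 and CXCL5 in HCT116 were too low for a change to be given.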
